A study of Mus musculus with 8 samples.

Results

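The B-class Eph receptors *Ephb1*, *Ephb2*, *Ephb3*, *Ephb4* and *Ephb6* and their transmembrane ligands *Efnb1*, *Efnb2* and *Efnb3* were followed in kidney glomeruli that lacked the tetraspanin CD151. They were chosen by name: a row of the signal table belonged to the family when its gene symbol was 1 of these 8, and each symbol was held by exactly 1 of the 25697 probes, which carry 18120 symbols in all. Glomerular RNA came from 4 *Cd151*+/+ and 4 *Cd151*-/- mice, all male, of the FVB/N strain and 3 weeks of age, and each mouse was hybridised to its own Illumina MouseRef-8 v1.1 array. The deletion was carried by the whole animal and not by 1 cell type. The glomeruli had been captured with magnetic beads perfused through the heart. Each value is therefore an average over podocytes, endothelium, mesangium and any tubule that came along. In such bulk RNA, fewer cells of a type and less RNA per cell cannot be told apart.

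Eph receptors are the largest family of receptor tyrosine kinases, and B-class members bind ephrins that span the membrane of a neighbouring cell. Contact between the cells sends a forward signal through the receptor kinase and a reverse signal through the tail of the ephrin, and both act on the cytoskeleton and on adhesion. In blood vessels *Ephb4* marks veins and *Efnb2* marks arteries, and in the glomerulus ephrin-B1, the product of *Efnb1*, lies at the slit diaphragm between podocyte foot processes.

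*Ephb1*, *Ephb4* and *Efnb1* were detected on all 8 arrays and carry most of what follows, so their promoters are shown, as a view of the sequence upstream of the measured genes. Each is the 250 bases before the RefSeq transcription start in mouse build GRCm38.p6, written 5′ to 3′ on the strand of the gene. Capitals mark CCAAT or its reverse complement ATTGG. The windows lie at chr9:102354694-102354943 on the minus strand for *Ephb1*, at chr5:137349859-137350108 on the plus strand for *Ephb4* and at chrX:99135811-99136060 on the plus strand for *Efnb1*.
Ephb1: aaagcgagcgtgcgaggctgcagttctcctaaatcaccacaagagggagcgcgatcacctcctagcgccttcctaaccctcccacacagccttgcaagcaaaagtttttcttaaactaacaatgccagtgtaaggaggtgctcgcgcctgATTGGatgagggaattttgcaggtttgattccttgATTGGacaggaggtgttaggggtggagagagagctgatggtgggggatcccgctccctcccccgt
Ephb4: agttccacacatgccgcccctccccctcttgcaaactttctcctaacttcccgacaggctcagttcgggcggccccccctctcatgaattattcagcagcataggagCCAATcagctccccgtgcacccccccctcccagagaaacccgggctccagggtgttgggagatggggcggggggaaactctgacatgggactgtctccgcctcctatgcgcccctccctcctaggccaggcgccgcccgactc
Efnb1: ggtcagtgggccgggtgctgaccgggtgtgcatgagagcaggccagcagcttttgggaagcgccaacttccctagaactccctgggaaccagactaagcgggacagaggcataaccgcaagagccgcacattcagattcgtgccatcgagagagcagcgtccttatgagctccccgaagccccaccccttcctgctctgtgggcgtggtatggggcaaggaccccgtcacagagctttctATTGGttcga

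The *Ephb1* window holds CCAAT boxes that begin 100 and 65 bases before the start, the *Ephb4* window 1 that begins 143 bases before it, and the *Efnb1* window 1 that begins 10 bases before it. Over both strands, 5 of the 7 members with a promoter entry hold CCAAT, against 33.8% of 32851 mouse promoters of the same length. The GC box GGGCGG is in 4 of the 7, against 32.7%. *Ephb1* and *Efnb1* hold none, and *Ephb4* holds 4. The TATA box TATAAA is in 1 of the 7, that of *Efnb2*, against 12.4% of all promoters. The AP-1 motif (TGACTCA or TGAGTCA) is in 0 of the 7 against 4.46%, the cyclic AMP response element TGACGTCA in 0 against 1.55% and the EGR1 motif GCGTGGGCG in 0 against 0.536%. These matches describe letters and not binding. The GC content was 54.0% for *Ephb1*, 64.0% for *Ephb4* and 60.0% for *Efnb1*, against a median of 52.4% over all promoters.

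The scale of all levels is the normalised log2 signal, the background-corrected and quantile-normalised brightness of a probe, and a difference of 1 on this scale is a doubling. The array background was between 59.0 and 135 signal units, and between 11291 and 12359 probes were detected per array, where detected means a detection p-value of 0.05 or lower against the negative-control probes. The arrays fall into a set of 4 with lower background (*Cd151*+/+ mice 1 and 2, *Cd151*-/- mice 3 and 4) and a set of 4 with higher background (*Cd151*+/+ mice 3 and 4, *Cd151*-/- mice 1 and 2), so that each set holds 2 mice of each genotype and differences could be read within it. The label check held: the brightest *Cd151* probe was detected in 4 of 4 *Cd151*+/+ mice and 0 of 4 *Cd151*-/- mice. A probe was tested when at least 1 array detected it, which 14967 probes did, and 7 of the 8 members were among them. A probe detected in only 1 genotype entered through that genotype, so its direction can follow from this filter.

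Of the 7 members tested, 6 had a lower mean in *Cd151*-/- glomeruli and 1, *Ephb2*, a higher mean. Of all 11240 genes tested with 1 probe each, 5652 were lower and 5588 higher. *Efnb2* was tested only through 1 *Cd151*+/+ array, so its lower mean can follow from the detection filter. In limma, 0 members passed Benjamini-Hochberg adjustment. Across all 14967 probes 5, or 0.0334%, passed it. At an unadjusted p of 0.05 or lower, 1 member, *Ephb1*, was lower, in a table where 2.61% of probes were lower by that rule. *Ephb1* was also the only member whose genotypes did not overlap, all 4 *Cd151*-/- values lying under the lowest *Cd151*+/+ value, as they did for 1.46% of all tested probes. The median difference of the 7 members was -0.40 on the log2 scale, beside -0.0018 for all 11240 genes tested with 1 probe each. Without *Cd151*-/- mouse 4 the median of the members was -0.22, and on deposited signals without background correction it was -0.25. Detection on all 4 arrays of a genotype left 4 members, with a median of -0.64, beside -0.014 for all genes under that filter. *Ephb6* passed that filter only through the *Cd151*+/+ mice, so its part in this median can follow from the filter. The 7 members include 4 detected on some arrays only.

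**Figure D1:**
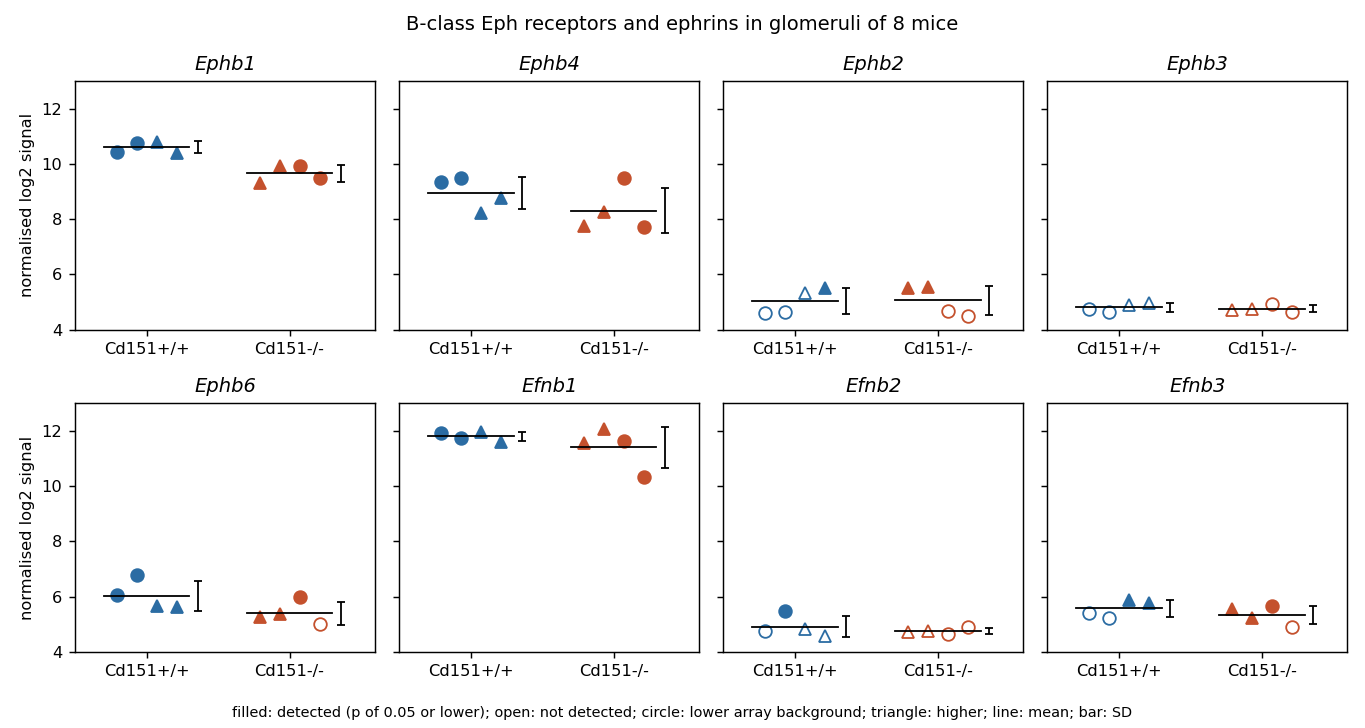
Normalised log2 signal of the 8 members (y axis) in each of 4 *Cd151*+/+ and 4 *Cd151*-/- mice (x axis). Filled symbols are detected, open symbols are not, circles and triangles are arrays of lower and higher background, lines are means and bars are SD. The genotypes are apart for *Ephb1* and overlap for the other members.

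Among the receptors, *Ephb1* encodes a kinase that binds all B-class ephrins. Its normalised log2 signal was 10.44, 10.76, 10.81 and 10.41 in *Cd151*+/+ mice 1 to 4, and 9.32, 9.92, 9.94 and 9.48 in *Cd151*-/- mice 1 to 4. The highest *Cd151*-/- mouse lay 0.47 below the lowest *Cd151*+/+ mouse, so the groups did not overlap. The means were 10.60 ± 0.21 and 9.66 ± 0.31 (SD, n = 4 each), a difference of -0.94 (SE 0.23, 95% interval -1.44 to -0.44), with a *Cd151*-/- level 0.522 times that of *Cd151*+/+.

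The unadjusted limma p of *Ephb1* was 0.00165, which ranked 25 among the 14967 probes, and the adjusted p was 0.918. The two-sided exact permutation test over all 70 ways to divide the mice gave p = 0.0286, the smallest that 4 against 4 allows. The *Ephb1* difference was -0.89 within the set of lower background and -0.99 within the set of higher background. As deposited, before any correction, the *Ephb1* signal stood 10.8, 14.5, 16.4 and 16.9 times above the background of its array in the *Cd151*+/+ mice and 9.09, 13.5, 7.73 and 6.80 times in the *Cd151*-/- mice. On that scale *Cd151*-/- mouse 2 lay above *Cd151*+/+ mouse 1, so over all arrays the deposited ratios overlapped while the normalised values did not. These mice belong to different background sets. Within each set, a split of 2 against 2 whose share over all probes was not counted, every *Cd151*-/- ratio lay below every *Cd151*+/+ ratio.

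The *Ephb1* difference was below 0 in all 19 alternative settings, from -1.05 to -0.83, each time at an unadjusted p of 0.05 or lower, while its adjusted p ranged from 0.0885 to 1.00. Settings that changed only the detection filter, a block or the variance model left the difference as it was. They could change its p but not its direction. SAM, the permutation method used in the methods of the study, called *Ephb1* at a false discovery rate below 0.2 on normalised log2 signals, where it called 91 probes, and on cubic-spline intensities, where it called 43 probes. It called 0 of the other members on either scale.

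*Ephb4*, the receptor that marks veins and binds ephrin-B2, had a normalised log2 signal of 9.34, 9.48, 8.22 and 8.76 in *Cd151*+/+ mice 1 to 4, and 7.76, 8.24, 9.49 and 7.73 in *Cd151*-/- mice 1 to 4. *Cd151*-/- mouse 3 had the highest value of the 8 mice, and the genotypes overlapped. The means were 8.95 ± 0.57 and 8.30 ± 0.82 (SD, n = 4 each), a difference of -0.65 (SE 0.41, 95% interval -1.56 to 0.26) with a limma adjusted p of 0.918. The difference was -0.80 within the set of lower background and -0.49 within the set of higher background. The size of the *Ephb4* difference moved with the mice included. Without *Cd151*-/- mouse 3 it was -1.04, with an unadjusted limma p of 0.0101 and an adjusted p of 0.512, and without *Cd151*+/+ mouse 3 it was -0.89. It came to -0.45 without *Cd151*-/- mouse 4, and to -0.47 without either *Cd151*-/- mouse 1 or *Cd151*+/+ mouse 2. Array weights gave -1.14, at an unadjusted p of 0.00457.

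*Ephb6*, a receptor whose kinase domain is inactive, was detected in all 4 *Cd151*+/+ mice and in 3 of the 4 *Cd151*-/- mice. Its normalised log2 signal was 6.06, 6.79, 5.65 and 5.61 in *Cd151*+/+ mice 1 to 4 and 5.26, 5.35, 5.97 and 4.99 in *Cd151*-/- mice 1 to 4. *Cd151*-/- mouse 3 lay above *Cd151*+/+ mice 3 and 4, so the genotypes overlapped. Within each background set every *Cd151*-/- mouse was below every *Cd151*+/+ mouse, a split of 2 against 2 whose share over all probes was not counted. The deposited signal was only 1.09 to 1.56 times the background of its array. The difference was -0.64 (SE 0.31, 95% interval -1.32 to 0.05, n = 4 each, limma adjusted p = 0.918), and it was -0.94 in the set of lower background and -0.33 in the set of higher background. The unadjusted limma p of *Ephb6* was 0.0669, and with the background set as a block it was 0.0371 (adjusted 0.424). The *Ephb6* difference was -0.40 without *Cd151*+/+ mouse 2 and -0.25 on deposited signals without background correction. It was larger without *Cd151*-/- mouse 3, at -0.86 (unadjusted p 0.022), and in the equal-variance test on cubic-spline intensities, at -1.03.

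*Ephb2*, another kinase-active receptor, was detected on 3 arrays, those of *Cd151*+/+ mouse 4 and *Cd151*-/- mice 1 and 2. Its normalised log2 signal was 4.62, 4.63, 5.34 and 5.51 in *Cd151*+/+ mice 1 to 4 and 5.50, 5.53, 4.69 and 4.50 in *Cd151*-/- mice 1 to 4. The 4 higher values were those of the 4 arrays with higher background, in both genotypes, so that the level of *Ephb2* divided the mice by array background and not by genotype. What part the background had in the level was not tested. The genotype difference was 0.03 (SE 0.32, 95% interval -0.67 to 0.74, limma adjusted p = 0.992, n = 4 each), and it was -0.03 and 0.09 within the sets of lower and higher background. Array weights moved it to 0.52 (unadjusted limma p 0.0753), and leaving out a mouse gave between -0.12 and 0.23.

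*Ephb3*, a receptor that shares ligands with *Ephb2*, was detected on 0 of 8 arrays and was not tested. Its deposited signal was between 0.965 and 1.13 times the background of its array, which gives no more than a bound on its level.

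Among the ligands, *Efnb1* had the normalised log2 signals 11.91, 11.72, 11.97 and 11.60 in *Cd151*+/+ mice 1 to 4, and 11.56, 12.06, 11.65 and 10.33 in *Cd151*-/- mice 1 to 4. *Cd151*-/- mice 1 to 3 lay among or next to the *Cd151*+/+ mice, *Cd151*-/- mouse 2 was the highest of all, and *Cd151*-/- mouse 4 lay apart below the rest. The means were 11.80 ± 0.17 and 11.40 ± 0.75 (SD, n = 4 each), a difference of -0.40 (SE 0.34, 95% interval -1.14 to 0.34, limma adjusted p = 0.918). Without *Cd151*-/- mouse 4 the *Efnb1* difference was -0.05. It was -0.83 within the set of lower background, which holds that mouse, and 0.02 within the set of higher background.

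*Efnb2*, the arterial ephrin and partner of *Ephb4*, was detected on 1 array, that of *Cd151*+/+ mouse 2, at a detection p-value of 0.0476. Its normalised log2 signal was 4.77, 5.47, 4.83 and 4.59 in *Cd151*+/+ mice 1 to 4 and 4.71, 4.76, 4.65 and 4.91 in *Cd151*-/- mice 1 to 4. Apart from *Cd151*+/+ mouse 2 the values of both genotypes lay together near background. It was not well above background in the *Cd151*-/- mice, and no fold is given (limma adjusted p = 0.921).

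*Efnb3*, a ligand best known from the nervous system, was detected in 2 *Cd151*+/+ and 3 *Cd151*-/- mice. Its normalised log2 signal was 5.39, 5.23, 5.89 and 5.76 in *Cd151*+/+ mice 1 to 4 and 5.54, 5.23, 5.65 and 4.90 in *Cd151*-/- mice 1 to 4. The genotypes overlapped, with a difference of -0.24 (SE 0.25, 95% interval -0.78 to 0.30, n = 4 each, limma adjusted p = 0.918). With *Cd151*-/- mouse 4 left out it was -0.10, and it was -0.37 or -0.13 when mouse 2 or mouse 3 of the *Cd151*+/+ group was left out. Array weights gave -0.03 and 75th percentile scaling -0.41.

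**Figure D2:**
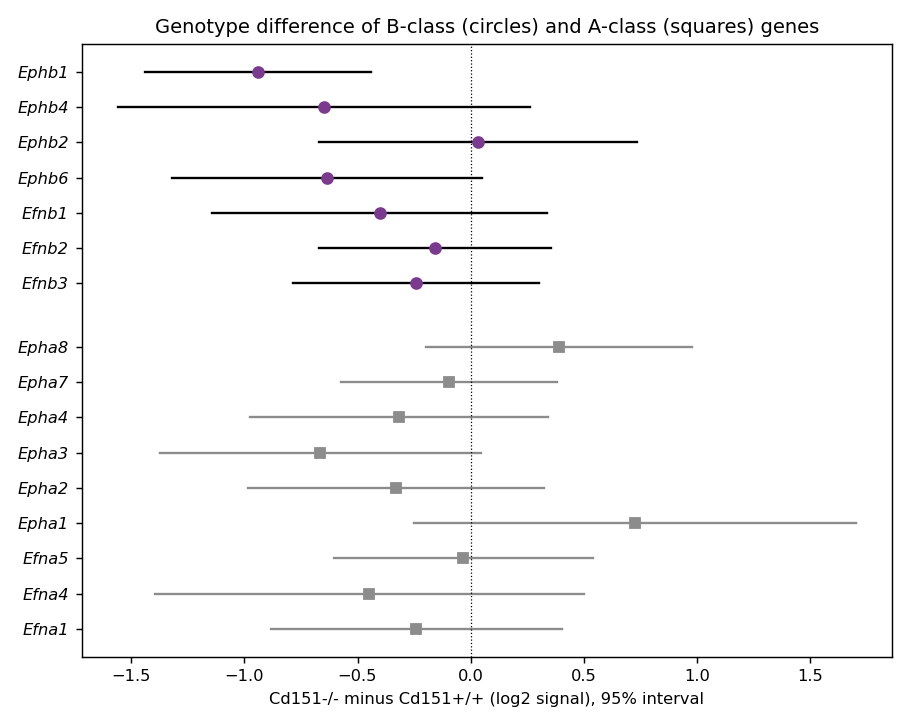
Difference between *Cd151*-/- and *Cd151*+/+ means (x axis, log2 signal) of the 7 members tested (circles) and of the 9 A-class genes tested (squares), with 95% intervals as lines and 1 gene per row. The interval of *Ephb1*, -1.44 to -0.44, lies wholly below 0, and those of the other members cross it.

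Whether *Ephb1* differed from the other well-measured members was asked of the within-mouse differences in log2 signal, a comparison chosen after the values were seen. From *Cd151*+/+ to *Cd151*-/-, the log2 ratio of *Ephb1* to *Efnb1* differed by -0.54 (two-sided exact permutation p = 0.2, 0.6 after adjustment over 3 pairs) and that of *Ephb1* to *Ephb4* by -0.29 (exact permutation p = 0.571, adjusted 0.743). For *Ephb4* to *Efnb1* it was -0.24 (exact permutation p = 0.743, adjusted 0.743). In all 3 pairs the genotypes overlapped, so a larger difference for *Ephb1* than for *Ephb4* or *Efnb1* was not shown with 4 mice per genotype.

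The members also differed in which mice stood low. *Cd151*-/- mouse 4 had the lowest value of the 8 mice for 5 of the 7 members tested, *Ephb2*, *Ephb4*, *Ephb6*, *Efnb1* and *Efnb3*. On that array *Ephb2*, *Ephb6* and *Efnb3* were not detected, so their lowest values lie within background. *Ephb1* was lowest in *Cd151*-/- mouse 1, and *Efnb2* in *Cd151*+/+ mouse 4, where it was not detected. The share of all probes that were lowest in a given mouse was not counted. Across the 8 mice, Pearson's r of the normalised log2 signals was 0.59 between *Ephb1* and *Ephb4*, 0.55 between *Ephb1* and *Efnb1* and 0.43 between *Ephb4* and *Efnb1*, as a description of 8 arrays that share the genotype difference and the array background.

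The same mice differed in markers of the cells in the preparation. The podocyte list, mean normalised log2 signal of 4 tested genes (*Podxl*, *Wt1*, *Ptpro* and *Tcf21*), lay between 11.77 and 12.23 in the *Cd151*+/+ mice. In the *Cd151*-/- mice it lay between 10.96 and 12.51, and each of the 4 was detected on all 8 arrays. *Cd151*-/- mouse 4, the lowest for *Efnb1*, had the lowest podocyte mean. All 4 genes had a lower mean in *Cd151*-/-, 0 of them at an unadjusted p of 0.05 or lower, with a median difference of -0.24. The glomerular endothelial list, 9 genes tested of 9, ranged from 10.77 to 11.30 and from 10.32 to 11.19, with 8 of the 9 lower, 0 at that threshold and a median of -0.35. Of these, *Kdr* was detected in 2 *Cd151*+/+ and 0 *Cd151*-/- mice, so its direction can follow from the detection filter.

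The lowest endothelial means were those of *Cd151*-/- mice 1 and 4, at 10.32 and 10.36, and these mice were also the lowest for *Ephb1* and *Ephb4*. Of the arterial markers, among them the Notch ligand *Dll4*, 6 of 8 tested were lower and 1 passed an unadjusted p of 0.05, *Dll4* itself, at -1.35 (SE 0.30, limma adjusted p = 0.744). Of the venous markers 3 of 5 tested were lower, 1 of them at that threshold, *Vwf*, at -0.90 (limma adjusted p = 0.918). *Vwf* was detected in 2 *Cd151*+/+ and 0 *Cd151*-/- mice, so its direction can follow from the detection filter. Proximal tubule markers, which glomeruli should lack, were higher in *Cd151*-/- for 8 of 8 genes tested, 2 of them at an unadjusted p of 0.05 or lower, with a median of 0.60. Among the 8, *Lrp2* was detected in 0 *Cd151*+/+ and 2 *Cd151*-/- mice, so the same limit holds for it. The mean of these genes is given next. Their mean lay between 8.68 and 9.94 in *Cd151*+/+ mice, and between 9.66 and 10.85 in *Cd151*-/- mice, with the highest value in *Cd151*-/- mouse 4.

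Markers of blood and of the immediate early response, a set of genes that cells switch on within minutes of a stimulus or of handling, were lower in *Cd151*-/- by more than the podocyte and endothelial lists. Of 7 immediate early genes tested, 7 had a lower mean in *Cd151*-/-, 2 of them at an unadjusted limma p of 0.05 or lower, *Junb* at -1.48 and *Zfp36* at -0.99, and the median was -0.97. The immediate early mean lay between 10.90 and 11.88 in *Cd151*+/+ mice, and between 8.96 and 12.07 in *Cd151*-/- mice. *Cd151*-/- mouse 4 was the lowest of all 8 mice and *Cd151*-/- mouse 2 the highest, so the genotypes overlapped.

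Of 4 erythroid genes tested, 4 had a lower mean, 2 of them at that threshold, *Alas2*, which starts haem synthesis in red cell precursors, at -2.57 and the alpha-globin *Hba-a1* at -0.69, and the median was -0.63. The erythroid mean was 8.33, 10.11, 8.76 and 8.10 in *Cd151*-/- mice 1 to 4, of which mouse 4 was again the lowest and mouse 2 lay above all *Cd151*+/+ mice (9.65 to 9.96). Of 6 mesangial and smooth muscle genes tested, 4 were lower and 2 higher, with a median of -0.28, and at that threshold *Pdgfrb*, a receptor of mesangial cells and pericytes, stood at -0.74 and *Acta2*, smooth muscle actin, at 0.71. The part of cell composition, blood content or handling in the differences of the members was not tested.

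**Figure D3:**
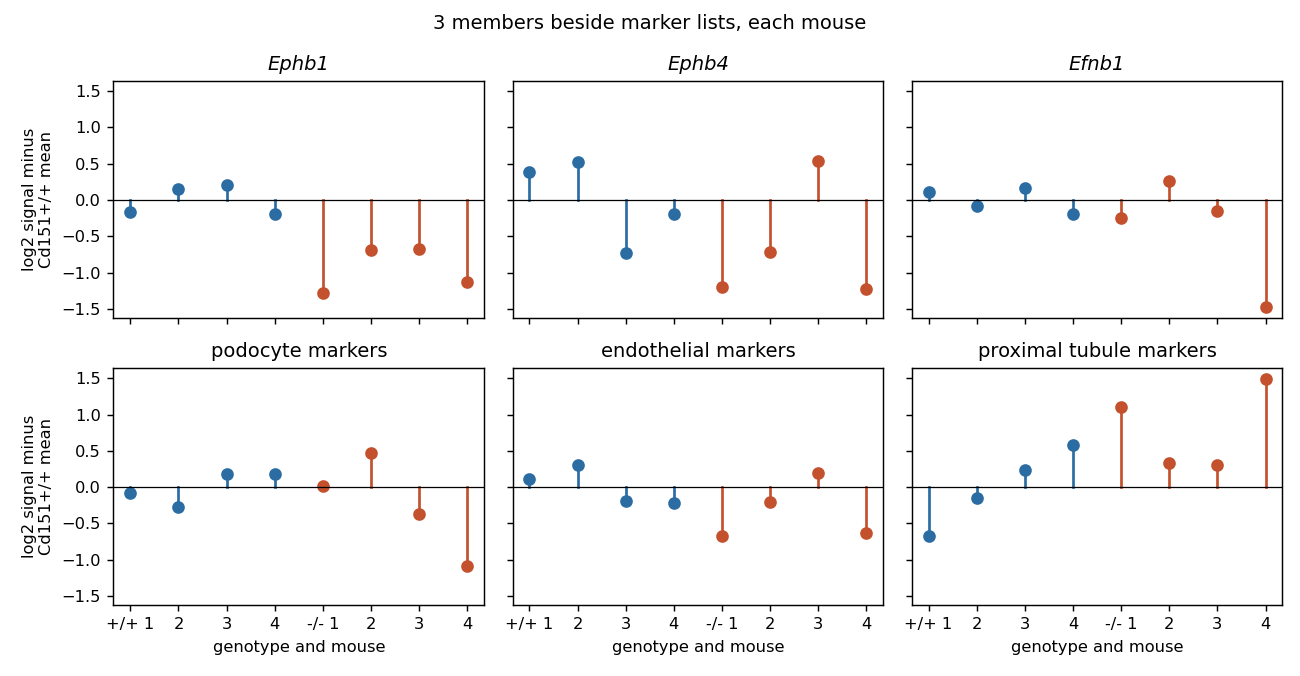
Log2 signal of 3 members and mean log2 signal of 3 marker lists in each mouse (x axis), minus the *Cd151*+/+ mean (y axis). *Ephb1* is below 0 in all 4 *Cd151*-/- mice, and *Cd151*-/- mouse 4 is the lowest for *Efnb1* and for podocyte markers and the highest for proximal tubule markers.

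The A-class receptors and ephrins, whose ligands are held in the membrane by a lipid anchor, had 14 genes on the array, of which 9 were tested. Their median difference was -0.24, with 2 genes higher and 7 lower. At an unadjusted limma p of 0.05 or lower there were 0 of them. With *Cd151*+/+ mouse 3 left out the median was -0.12, and it was -0.14 or -0.13 when mouse 1 or mouse 4 of the *Cd151*-/- group was left out. The count at that threshold was 2 without *Cd151*+/+ mouse 4, where 6.63% of all probes reached it. With array weights the count was 4, beside 32.2% of all probes. The extremes were *Epha3* at -0.66 (7.12 ± 0.60 against 6.46 ± 0.40, SD, n = 4 each, limma adjusted p = 0.918) and *Epha1* at 0.73 (6.50 ± 0.75 against 7.23 ± 0.79, n = 4 each, limma adjusted p = 0.918). The other 3 probes of *Epha1* differed by 0.46, 0.15 and -0.15, and the other 2 of *Epha3* by -0.47 and -0.11. The probes at -0.15 and -0.11 were each detected in 1 *Cd151*+/+ and 0 *Cd151*-/- mice, so their direction can follow from the detection filter. The same holds for *Epha7*, counted among the 7 lower genes.

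Genes that carry the forward signal from the receptor, such as kinases, adaptors and guanine nucleotide exchange factors, were represented by 29 tested of 35 listed. Of these 12 were higher and 17 lower, with a median difference of -0.06. The probe that stood for *Vav2*, among the higher, was detected in *Cd151*-/- mice only, so its direction can follow from the detection filter. At an unadjusted p of 0.05 or lower there was 1 gene, *Rac1*, the GTPase that drives actin-rich protrusions. Its normalised log2 signal was 10.78 ± 0.22 in *Cd151*+/+ and 10.04 ± 0.54 in *Cd151*-/- mice (SD, n = 4 each), a difference of -0.74 (SE 0.28, limma adjusted p = 0.918), and the genotypes overlapped. When *Cd151*+/+ mouse 2 was left out, 0 of the genes reached that threshold, and the same count was found without mouse 1 or without mouse 4 of the *Cd151*-/- group. The count was 3 with the background set as a block or with no detection filter, and 10 with array weights. Over all probes, 11.3% were at that threshold with the block, 4.26% with no detection filter and 32.2% with array weights, against 4.3% as reported. The gene farthest in the other direction was *Nck1*, an adaptor between receptors and actin, at 0.77 (SE 0.59, limma adjusted p = 0.918).

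Genes of reverse signalling and of receptor turnover, such as PDZ adaptors, phosphatases and the gamma-secretase that cuts ephrin-B tails, were represented by 20 tested of 24 listed. The median difference of the list was 0.0020, with 10 genes higher and 10 lower. Among them *Acp1* and *Ptpn1*, both higher, were detected in *Cd151*-/- mice only, and *Cbl*, lower, in *Cd151*+/+ mice only. The directions of these genes can follow from the detection filter. In the list 0 genes reached an unadjusted limma p of 0.05. The count was 4 without *Cd151*-/- mouse 3 and 3 without *Cd151*+/+ mouse 4, and it was 3 with the background set as a block and 9 with array weights. In the same order, 9.42%, 6.63%, 11.3% and 32.2% of all probes were at that threshold. The extremes were *Pdzrn3*, a PDZ-domain ubiquitin ligase, at 0.77 (SE 0.43) and *Grip1*, a PDZ adaptor of ephrin-B, at -0.66 (SE 0.37), each with a limma adjusted p of 0.918. *Rgs3*, which binds the ephrin-B tail through a PDZ domain and was singled out after its values were seen, was lower by its brightest probe, at -0.64 (SE 0.35, limma adjusted p = 0.918). Of its other probes that were tested, 1 detected in 4 *Cd151*+/+ and 1 *Cd151*-/- mice differed by -1.03, with an unadjusted p of 0.00432 and no overlap of the genotypes. This probe did not stand for the gene in the counts. The other 3 differed by -0.33, -0.10 and 0.14, so the probes of *Rgs3* disagreed in size and in direction. The probe at -0.33 was detected in *Cd151*+/+ mice only, so its direction can follow from the detection filter.

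**Figure D4:**
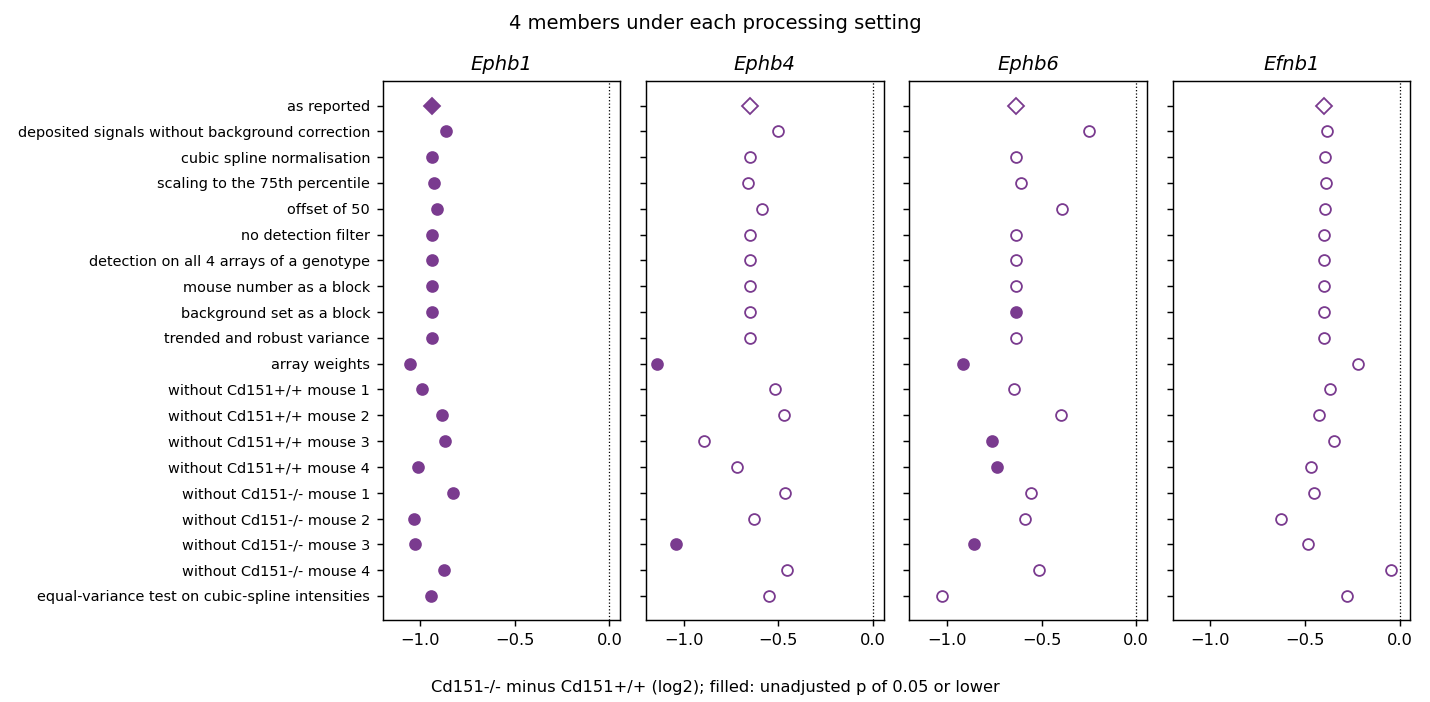
Difference between *Cd151*-/- and *Cd151*+/+ means (x axis, log2) of 4 members under each processing setting (y axis). Filled symbols are at an unadjusted p of 0.05 or lower, and the diamond is the value as reported. *Ephb1* is filled throughout, from -1.05 to -0.83, while *Efnb1* comes to -0.05 without *Cd151*-/- mouse 4.

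Probes whose signal followed that of a member most closely over the 8 arrays were ranked by Pearson's r among the 14967 probes, as a description. For *Ephb1* they were *Snrk* (r = 0.972), *Rabif* (0.960) and *2310002B06Rik* (0.957), and for *Ephb4* they were *Elmo1* (0.997), *Amotl2* (0.996) and *Smarce1* (0.995). *Efnb1* was followed by the probe of a gene listed as 2-Sep, a symbol that a spreadsheet had turned into a date (r = 0.971), by *BC039093* (0.963) and by *AA407270* (0.963). The *Snrk* difference was -0.91 (limma adjusted p = 0.905), close to that of *Ephb1*, whereas *Smarce1* differed by -0.24 and the 2-Sep probe by -0.06.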

How the data were processed

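RNA of isolated glomeruli was amplified, biotin-labelled and read with the BeadArray Reader by the authors, with GenomeStudio named in the submitters' processing notes. The authors deposited the signal intensity of each probe, neither background-subtracted nor normalised, and beside it a detection p-value per probe and array. In R 4.3.3 with limma 3.58.1, the background was inferred from the detection p-values, neqc (offset 16, quantile normalisation) gave log2 values, and genotypes from the labels were compared with lmFit and eBayes, with Benjamini-Hochberg adjustment over the probes detected (p of 0.05 or lower) on at least 1 array. Apart from the log2 ratios between members and the means of gene lists, genotypes were compared within a probe. Levels of different probes were compared to choose the brightest of a gene. Permutation tests used all 70 relabelings. SAM and a cubic spline through 15 quantiles were written out again in R. The limma fit and SAM were tested on simulated data, and the spline was not. All members were named, with genes of the A-class, forward and reverse signalling lists at an unadjusted p of 0.05 or lower, the extremes of these lists, *Rgs3*, some marker genes, and the 3 probes most like each member detected on all arrays. A gene with more than 1 probe was represented by its brightest. Members, lists and tests were chosen with earlier results of these data known. The alternatives in processing were deposited signals without background correction, cubic spline, 75th percentile scaling and an offset of 50. Others used no detection filter or detection on all 4 arrays of a genotype. The fit was varied with mouse number or background set as a block, another variance model, array weights, and each mouse left out. SAM, named in the methods, and an equal-variance test on cubic-spline intensities, not named there for the arrays, were also run. Promoters came from RefSeq and 7 of 8 members had an entry. The mice are separate animals. The number of arrays and the signal over background limit the precision. The PCR, staining and protein experiments of the study were not analysed here. The result of 1 marker gene is not reported here, and its list was computed without it.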

Additional observations from a re-analysis of the deposited data

How the results depend on the processing

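*Ephb1*, *Ephb4*, *Ephb6* and *Efnb1* kept their direction in all 19 alternatives run, and *Efnb2* in 16 and *Efnb3* in 17 of those that tested them. Among these, a changed filter, block or variance model left the difference as it was and could not turn a direction. *Ephb2* turned to -0.000979 on deposited signals without background correction and to -0.13 after 75th percentile scaling, which moved the median of all genes to -0.06, and ranged from -0.12 to 0.23 when each mouse was left out. The 1 member at an unadjusted limma p of 0.05 or lower became 2 with the background set as a block (*Ephb6* added) and 3 with array weights (*Ephb4* and *Ephb6* added), and ranged from 1 to 3 when each mouse was left out, with *Ephb6* added without *Cd151*+/+ mouse 3 or 4 and *Ephb4* and *Ephb6* without *Cd151*-/- mouse 3. Over all probes, 11.3% were at that threshold with the background set as a block and 32.2% with array weights, against 4.3% without them. When each mouse was left out, the share of all probes was between 2.3% and 9.42%, the latter without *Cd151*-/- mouse 3. Array weights gave *Ephb2* 0.52, *Ephb4* -1.14 and *Ephb6* -0.92. The forward signalling median turned to 0.04 without *Cd151*-/- mouse 4. Deviations of same-numbered mice from their genotype means correlated at -0.58, -0.40, -0.53 and -0.01. Same-numbered mice lay in opposite background sets, so these values cannot show whether the mouse number pairs animals. With the mouse number as a replicate block *Ephb1* was -0.94 (unadjusted limma p 0.00476, adjusted 0.998), and the block moved no member across the threshold. The mean of all probes of a gene was not run, since each member has 1 probe. The causes were not tested. Probes near background, *Ephb2*, *Ephb3*, *Ephb6*, *Efnb2* and *Efnb3*, are limited by signal over background.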
